A study of Homo sapiens with 6 samples.

Results

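The transcripts described here encode secreted signals of the TGF-beta family and the follistatins that bind them. They were TGFB1, TGFB2, INHBA, INHBB, INHBC, INHBE, GDF15, BMP4, FST and FSTL3, chosen by name with earlier results of these data known. Each was read from the probe set with the highest mean signal among those that the platform annotation gives to that symbol alone. All 10 had such a probe set, among 19775 genes on the array, and 8 of the 10 had a mean signal above the floor defined below. HepG2, a human hepatoblastoma line that makes many hepatocyte proteins, was transfected either with siControl, a control siRNA, or with siHNF4A, which targets the liver nuclear receptor HNF4A. Each culture then had no TGF-beta (0 h) or 3 ng/ml of TGF-beta for 1.5 or 24 h. Each of the 6 combinations is a single Affymetrix array, without replicates, and all 6 groups were transfected. Untreated cells at the later times are not among the samples, so effects of TGF-beta and of time in culture cannot be told apart. Whether separate transfections gave the arrays of an arm is not stated in the labels. The HNF4A transcript was not analysed here, and the siRNA labels were therefore not checked against their target.

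TGF-beta and activins bind pairs of type I and type II receptor kinases that activate Smad2 and Smad3, while bone morphogenetic proteins activate Smad1, Smad5 and Smad8. Activins are dimers of the beta subunits that the INHB genes encode, and follistatins hold activin away from its receptor. In liver, activin and TGF-beta restrain hepatocyte growth, and GDF15 is a circulating stress hormone that acts on a receptor in the brainstem.

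The regions upstream of 4 members are shown first: GDF15 and FSTL3, which passed the test in both comparisons below, and FST and INHBB, the members whose differences from 0 to 24 h were furthest apart between the siRNA arms. They are RefSeq sequences of GRCh38.p14, 250 bases ending at the base before the annotated start, read 5′ to 3′ on the gene's strand. GDF15 is chr19:18385908-18386157, plus strand, FSTL3 is chr19:676142-676391, plus strand, FST is chr5:53480379-53480628, plus strand and INHBB is chr2:120345886-120346135, plus strand. Capitals mark a match to a motif that was searched.
GDF15: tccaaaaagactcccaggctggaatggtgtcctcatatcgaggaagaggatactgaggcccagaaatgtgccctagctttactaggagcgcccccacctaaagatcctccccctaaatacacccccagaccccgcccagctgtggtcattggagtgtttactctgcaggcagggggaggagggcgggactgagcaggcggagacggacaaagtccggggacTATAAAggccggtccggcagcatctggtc
FSTL3: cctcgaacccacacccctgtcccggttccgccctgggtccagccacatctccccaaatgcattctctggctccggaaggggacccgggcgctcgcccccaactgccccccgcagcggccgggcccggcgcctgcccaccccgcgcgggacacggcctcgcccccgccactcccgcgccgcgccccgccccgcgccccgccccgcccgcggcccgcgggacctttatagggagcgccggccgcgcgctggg
FST: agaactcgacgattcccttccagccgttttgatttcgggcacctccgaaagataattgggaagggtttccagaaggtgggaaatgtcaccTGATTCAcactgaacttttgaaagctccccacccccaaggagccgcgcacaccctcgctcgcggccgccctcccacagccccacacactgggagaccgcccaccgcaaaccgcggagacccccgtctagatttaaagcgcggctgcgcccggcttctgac
INHBB: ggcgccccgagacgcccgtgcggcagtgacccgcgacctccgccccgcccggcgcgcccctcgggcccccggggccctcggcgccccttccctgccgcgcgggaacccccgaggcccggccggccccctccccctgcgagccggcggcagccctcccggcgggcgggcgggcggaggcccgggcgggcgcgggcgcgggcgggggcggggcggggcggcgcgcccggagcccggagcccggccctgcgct
RefSeq listed such a window for 9 of the 10 members, and 300 bases of each (250 before and 50 after the start) were searched for 7 motifs. GDF15 had a TATA box (TATAAA, searched on the gene strand) 29 bases before its start, a motif present in 7.71% of 27303 promoter windows of the same length. FST had an AP-1 motif (TGANTCA, both strands) as TGATTCA, 160 bases before its start, and 7.76% of all windows hold that motif. None of the 7 motifs was found in the windows of FSTL3 and INHBB. The other 5 were the CRE TGACGTCA (1.98% of windows), the C/EBP-ATF composite TGATGNAA (3.67%), the Smad box CAGACA (16.8%), the palindromic Smad element GTCTAGAC (0.201%) and the HNF4 core CAAAGTCCA (0.359%), each searched on both strands, and no 2 matches in the members' windows overlapped. The INHBB window was 88.7% G and C, against a median of 58.3% over all windows. A match is a description of letters and not a measured site.

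Signals are MAS5 intensities on a linear scale. The floor was 12.9, the median of all signals on the 6 arrays, and lower signals were set to it before log2 was taken. Between 49.1% and 50.7% of probe sets lay above it on each array. The siControl 0 h array stood apart in the 3 AFFX-HUMRGE control probe sets, which read ribosomal RNA of the sample. The 5' set was 8600 there and 69.8 to 736.5 on the other 5 arrays, the middle set 1333 and 53.0 to 258.7, and the 3' set 461.9 and 87.6 to 151.9. Calls of members and list genes that changed without that array are given with their value, and the part of the ribosomal signal in them was not tested. All 9 hepatocyte and hepatoblast markers, among them ALB and AFP, were above the floor on every array. Their summed signal was 50442 to 59521 over the arrays. In that list TTR and FGB fell and SERPINA1 rose at 24 h, and with siHNF4A FGB rose and TTR fell. Of 6 fibroblast and stellate markers none was above the floor on every array, and the summed signal was 58.2 to 101.8. The endothelial markers CDH5, KDR and VWF were at or under the floor on all arrays, and PECAM1, the other of that list, read 47.0 to 127.2 and rose at 24 h, for a summed signal of 55.1 to 140.4. Of 3 blood markers on the array PTPRC was under the floor throughout, and CD14 read 13.9 to 100.3, rose at 24 h and fell with siHNF4A, for a summed signal of 28.7 to 114.2. The 24 h calls of SERPINA1 (0.31), PECAM1 (0.54) and CD14 (1.20) were lost when the siControl 0 h array was left out. The siRNA calls of TTR (-0.38) and CD14 (-0.78) were lost when the 24 h pair was left out. These values are log2 differences in those fits. The part of these marker levels in the results below was not tested.

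**Figure D1:**
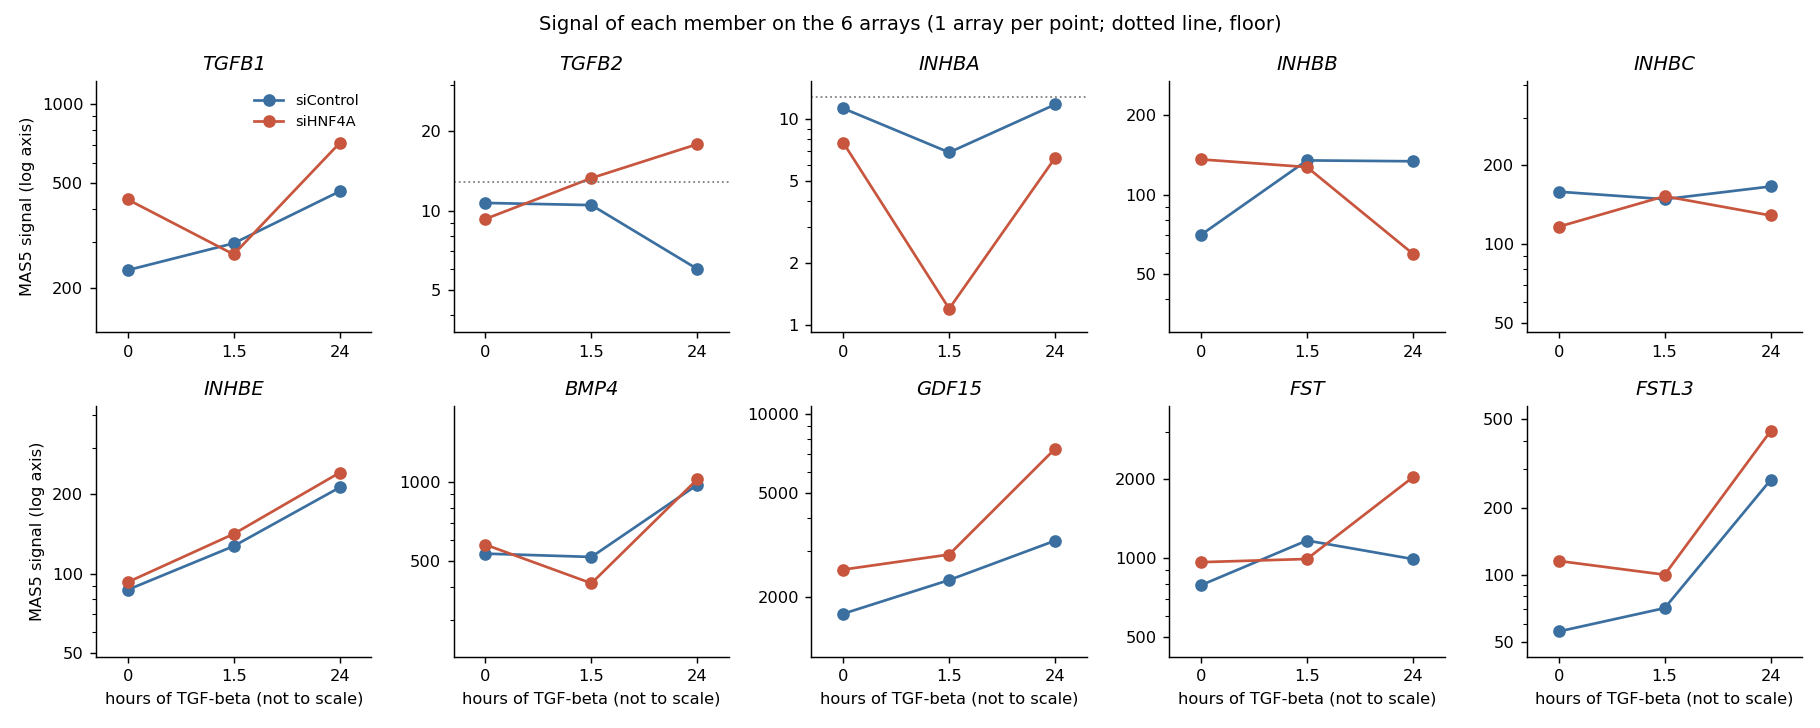
MAS5 signal (log axis) of the 10 members at 0, 1.5 and 24 h of TGF-beta in siControl (blue) and siHNF4A (red) cells, 1 array per point, with the times evenly spaced and the floor of 12.9 dotted where it falls in the panel. FSTL3, INHBE, BMP4, GDF15 and TGFB1 are highest at 24 h in both arms, INHBB has its highest signal at different times in each arm, and INHBA stays under the floor.

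After 24 h with TGF-beta 6 of the 8 tested members rose and none fell. They were the ligands TGFB1, INHBE, BMP4 and GDF15 and the antagonists FST and FSTL3, and the largest difference was that of FSTL3, 4.30-fold on average over the siRNA arms. Of the 11921 genes tested 7.22% rose and 7.82% fell in that comparison (limma, Benjamini-Hochberg adjusted p under 0.05). The median difference of the 8 members was 0.85 on the log2 scale, against -0.03 for all genes tested. Members and lists were chosen with earlier results of these data known. Their counts and medians beside those of all genes, here and below, are therefore descriptions only. The differences below are log2 values from this fit with their standard error, each over 2 arrays per time. In a bulk culture fewer expressing cells and less RNA per cell cannot be told apart.

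FSTL3, a secreted follistatin-like glycoprotein that binds activin and myostatin, lies at chr19:676392-683385 (GRCh38.p14, as for all loci here). Its signals at 0, 1.5 and 24 h were 55.5, 70.7 and 266.6 in siControl and 115.2, 99.9 and 442.6 in siHNF4A. Both 24 h arrays lay above all 4 earlier ones. The 24 h difference was 2.10 ± 0.21 (limma adjusted p = 1.9e-05), the 25th highest of 11921 genes, with 2.26 in siControl and 1.94 in siHNF4A.

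FST encodes follistatin, which binds activin with high affinity, and lies at chr5:53480629-53487134. Its signals were 788.4, 1166 and 991.3 in siControl and 964.6, 991.9 and 2028.3 in siHNF4A at the same times. The siHNF4A 24 h array was high, and the other 5 lay close together. The fit gave 0.70 ± 0.20 at 24 h (limma adjusted p = 0.030), made of 0.33 in siControl and 1.07 in siHNF4A, so the mean hides unequal arms. All 3 probe sets of FST were above the floor on every array and had this shape, the 24 h difference being 0.20 to 0.33 for the siControl arm and 0.95 to 1.68 for the siHNF4A arm. FST did not pass after quantile normalization (0.66) or with its probe sets averaged (0.75 ± 0.26).

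**Figure D2:**
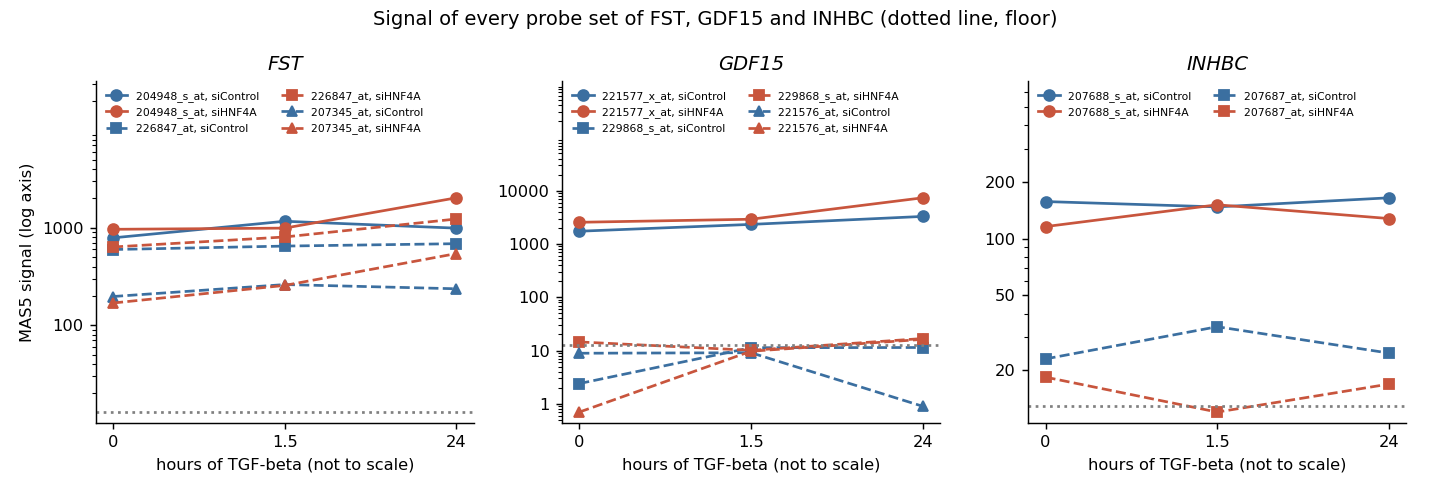
MAS5 signal (log axis) of every probe set of FST, GDF15 and INHBC by hours of TGF-beta (evenly spaced) and siRNA, with the probe set used drawn solid, the others dashed and the floor of 12.9 dotted. The 3 FST probe sets are each highest on the siHNF4A 24 h array, while the 2 other GDF15 probe sets lie near or under the floor.

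GDF15, the stress-induced hormone, lies at chr19:18386158-18389176. It read 1734.5, 2329.7 and 3287.5 in siControl and 2552.4, 2912.2 and 7350.2 in siHNF4A, so its signal was higher at each later time in both arms. The 24 h difference was 1.22 ± 0.15 (limma adjusted p = 8.7e-05), 0.92 in siControl and 1.53 in siHNF4A. This reading rests on 1 probe set whose name ends in _x_at, the platform's mark for probes that can match other transcripts, and the other 2 probe sets of GDF15 were above the floor on 1 and 2 arrays. With all 3 averaged GDF15 had 0.50 and did not pass.

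INHBE encodes the activin beta E subunit, a liver-enriched one, at chr12:57455307-57458025. Its signals were 86.8, 127.2 and 212.5 in siControl and 92.8, 141.5 and 241.9 in siHNF4A. The arms ran close together and both were higher at each later time. The 24 h difference was 1.34 ± 0.20 (limma adjusted p = 0.00036), with 1.29 and 1.38 in the arms. INHBC, the beta C subunit gene, is the neighbour of INHBE, at chr12:57434784-57452062, with 3244 bases and no annotated gene between them. It read 157.7, 147.7 and 165.1 in siControl and 116.1, 151.6 and 128.1 in siHNF4A. Its 24 h difference was 0.10 ± 0.21, with a 95% interval of -0.34 to 0.54, and did not pass.

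TGFB1, the gene of the first TGF-beta isoform, lies at chr19:41330323-41353922 and read 234.2, 296.2 and 466.6 in siControl and 434.7, 268.8 and 712.2 in siHNF4A. Each arm was highest at 24 h, but the siHNF4A 0 h array, at 434.7, was close to the siControl 24 h array. The reading rests on 1 probe set, since the other TGFB1 set read 2.5 to 10.2, under the floor on every array. The 24 h difference was 0.85 ± 0.20 (limma adjusted p = 0.011). Leaving out the siControl 0 h array gave 0.52, which did not pass. BMP4, a bone morphogenetic protein, lies at chr14:53949736-53956891 and read 534.6, 519.4 and 976.9 in siControl and 578.2, 412.4 and 1025.8 in siHNF4A. Both 24 h arrays lay above all others, and the difference was 0.85 ± 0.15 (limma adjusted p = 0.0013), 0.87 and 0.83 in the arms.

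INHBB, the activin beta B subunit gene at chr2:120346136-120351803, went opposite ways in the arms. It read 70.3, 134.9 and 133.9 in siControl and 136.1, 127.3 and 59.6 in siHNF4A, so 4 arrays lay between 127.3 and 136.1 and the siControl 0 h and siHNF4A 24 h arrays were low. The 24 h difference was 0.93 in siControl and -1.19 in siHNF4A, and their mean, -0.13 ± 0.35, did not pass. It was -0.92 and passed when the siControl 0 h array was left out, in which case the only 0 h array is that of siHNF4A. TGFB2 and INHBA, the genes of the second TGF-beta isoform and of the activin beta A subunit, were not tested. The brightest of 5 TGFB2 probe sets read 6.0 to 17.9, above the floor on 2 arrays (13.3 and 17.9, siHNF4A at 1.5 and 24 h). The brightest of 3 INHBA probe sets read 1.2 to 11.8, under the floor on every array.

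Of the 6 members that rose at 24 h, FSTL3 and INHBE also passed without limma's intensity trend, whereas TGFB1, GDF15, BMP4 and FST did not. When probe sets of a gene were averaged FSTL3, INHBE and BMP4 passed, and without the filter on dim genes none did. FSTL3, INHBE and BMP4 have 1 probe set each, so averaging could not alter their differences. The other probe set of TGFB1 was under the floor on every array, and those of GDF15 on most. Averaging with such sets shrinks a difference, and TGFB1 then had 0.43. This does not apply to FST, whose probe sets were all above the floor. Its averaged difference was 0.75 ± 0.26 and did not pass.

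**Figure D3:**
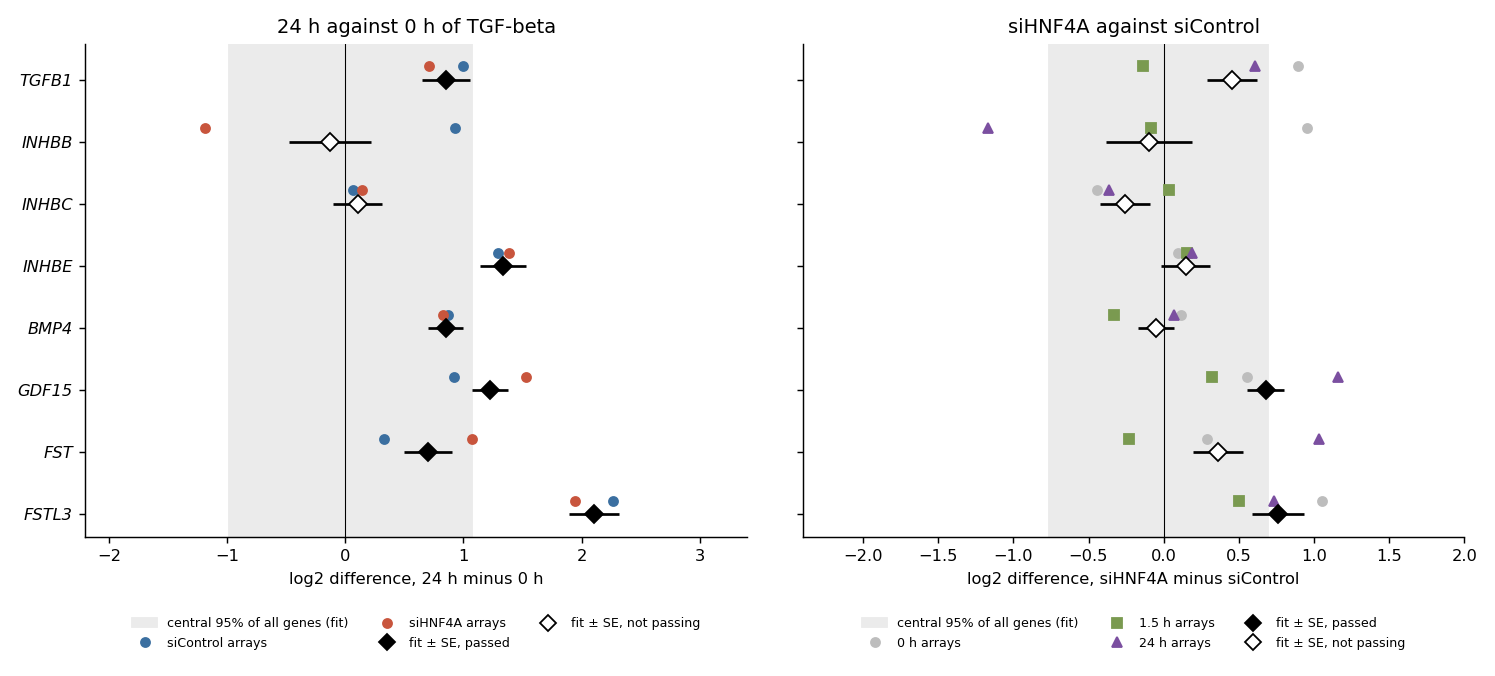
Log2 differences of the 8 tested members for 24 h against 0 h (left) and siHNF4A against siControl (right). Diamonds are the limma estimate ± SE, filled where the adjusted p was under 0.05, small symbols are differences between single arrays, and grey is the central 95% of all 11921 genes. FSTL3 lies at 2.10 and INHBE at 1.34 on the left, INHBB's arms lie at 0.93 and -1.19, and FSTL3 and GDF15 are the filled diamonds on the right.

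Between single arrays, with no test, 2 members were at least 2-fold higher at 24 h in siControl, INHBE and FSTL3, where 3.11% of all genes were (2.6% were lower). In siHNF4A 4 were, INHBE, FST, FSTL3 and GDF15, where 4.5% of all genes were, and INHBB was 2.28-fold lower, where 4.61% of all genes were at least 2-fold lower.

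The comparison of siRNAs over the 3 times found 2 of 8 members higher with siHNF4A and none lower, FSTL3 and GDF15. Of all genes tested 3.9% rose and 4.16% fell (limma adjusted p under 0.05). The median of the 8 was 0.25, against -0.04 for all genes. FSTL3 rose by 0.76 ± 0.17 (limma adjusted p = 0.013), with 1.05, 0.50 and 0.73 at 0, 1.5 and 24 h, and GDF15 by 0.68 ± 0.12 (limma adjusted p = 0.0034), with 0.56, 0.32 and 1.16. Both were higher in siHNF4A at all 3 times. The FSTL3 call was lost without the siControl 0 h array or the whole 0 h pair (0.62 in either case) and without the 24 h pair (0.78), and the GDF15 call was lost without the 24 h pair (0.44). Neither passed when the probe sets of a gene were averaged (GDF15 then had 0.32), when dim genes were kept, or when the intensity trend was dropped. FSTL3 has 1 probe set and kept its difference of 0.76 in all of these settings. Only its standard error and adjusted p changed there.

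The other 6 members did not pass. FST had 0.36 ± 0.17 (95% interval 0.01 to 0.72), with 0.29, -0.23 and 1.03 at 0, 1.5 and 24 h, and passed without the 0 h pair (0.40) or the 1.5 h pair (0.66). TGFB1 had 0.45 ± 0.17 (95% interval 0.10 to 0.81), with 0.89, -0.14 and 0.61, and passed without the 1.5 h pair (0.75). INHBE had 0.15 ± 0.16 (-0.20 to 0.49), BMP4 -0.05 ± 0.12 (-0.30 to 0.21) and INHBC -0.26 ± 0.17 (-0.62 to 0.10). INHBB had -0.10 ± 0.29 (-0.71 to 0.51), the mean of 0.95, -0.08 and -1.17 at the 3 times. The 95% intervals of all 6 leave out a 2-fold difference in either direction, for the mean over the 3 times and the probe set used. These intervals rest mostly on limma's prior, with 12.6 prior against 2 residual degrees of freedom, and not on the arrays of each gene. For INHBB the standard error was 0.39 without the intensity trend and 0.54 with dim genes kept. The intervals do not cover single times, where FST (1.03) and INHBB (-1.17) were past 2-fold at 24 h. The other INHBC probe set read 12.0 to 34.1. In the fit without probe sets ending in _x_at or _s_at it had -0.76 ± 0.29 and did not pass.

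A further fit asked whether the siRNA difference at 24 h departed from its mean at 0 and 1.5 h. No member and none of the 11921 genes passed (0% called, limma), and 3 members and 543 genes had an unadjusted p under 0.05. Those 3 were INHBB (-1.60 ± 0.48, 95% interval -2.67 to -0.53), FST (1.00 ± 0.26, 0.42 to 1.59) and GDF15 (0.72 ± 0.20, 0.28 to 1.16), each with a limma adjusted p = 0.99. FSTL3 had -0.04 ± 0.39, INHBE 0.06 ± 0.35 and BMP4 0.18 ± 0.27. With 1 residual degree of freedom, the spread in that fit comes mostly from limma's prior. Single arrays at 24 h differed by at least 2-fold between siRNAs for FST (2.05-fold higher in siHNF4A) and GDF15 (2.24-fold higher), where 2.23% of genes were higher. INHBB was 2.25-fold lower, where 3.05% of genes were lower. At 0 h FSTL3 was 2.08-fold higher, where 1.47% of genes were (1.63% were lower), and at 1.5 h no member reached 2-fold, where 1.54% of genes were higher and 3.26% lower.

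At 1.5 h with TGF-beta no member passed in limma, where 0.101% of genes did, 12 in all, and 364 genes had an unadjusted p under 0.05. The median of the 8 was 0.22, against -0.01 for all genes. INHBE was the member with such a p, 0.58 ± 0.20, from 0.55 in siControl and 0.61 in siHNF4A. The others were GDF15 (0.31 ± 0.15), FST (0.30 ± 0.20), INHBB (0.42 ± 0.35), INHBC (0.15 ± 0.21), FSTL3 (0.07 ± 0.21), TGFB1 (-0.18 ± 0.20) and BMP4 (-0.26 ± 0.15). Among single arrays none of the 8 reached 2-fold from 0 to 1.5 h in siControl (0.973% of genes higher, 0.721% lower) or in siHNF4A (0.537% and 1.47%). The comparisons at 1.5 and 24 h share the 0 h arrays.

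Other genes of the pathway were read from lists given with the design. Beside the list counts here and below, 7.22% of all genes tested rose and 7.82% fell at 24 h. With siHNF4A 3.9% rose and 4.16% fell, and at 1.5 h 0.101% passed. The medians of all genes were -0.03 at 24 h and -0.04 with siHNF4A. Calls of list genes were refitted only with arrays left out, not under the other changes of processing. Of 9 tested other ligands of the family 2 rose at 24 h and none fell. These were LEFTY1, a ligand that inhibits nodal signalling (1.78 ± 0.35), and INHA, the alpha subunit of the inhibins (1.42 ± 0.27). Of 10 tested antagonists and latency proteins 3 rose, LTBP2 of the latent TGF-beta binding family (2.40 ± 0.29), the proteoglycan BGN (1.88 ± 0.40) and WFIKKN1, which binds myostatin and GDF11 (1.44 ± 0.35). The medians were -0.04 and 0.25, against -0.03 for all genes tested. With siHNF4A none of the 9 ligands passed (median -0.18, all genes -0.04), and of the 10 antagonists and latency proteins WFIKKN1 rose (1.11 ± 0.28, with the siControl 1.5 h signal of 9.2 set to the floor; median of the list 0.03). WFIKKN1 did not pass for the siRNA without the 1.5 h pair (1.03) or the 24 h pair (0.89). NBL1, a BMP antagonist, had 0.84 ± 0.28 and did not pass, but passed without the siControl 0 h array or the 0 h pair (1.18 in either case).

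Of 8 tested receptors 3 rose at 24 h and none fell (median 0.38). BMPR2, a type II receptor for BMPs, rose by 1.25 ± 0.18, the type I receptor ACVR1 by 0.63 ± 0.16 and the type II TGF-beta receptor TGFBR2 by 0.45 ± 0.11. ACVR1 (0.64) and TGFBR2 (0.42) lost their calls when the siControl 0 h array was left out, and the type I TGF-beta receptor TGFBR1 (0.46) gained one when the 1.5 h pair was. With siHNF4A TGFBR2 rose by 0.53 ± 0.09 and the co-receptor TGFBR3 fell by 0.33 ± 0.09 (median 0.02). TGFBR2 had 0.46 and did not pass without the 24 h pair. TGFBR3 lost its call without the siControl 0 h array or the 0 h pair (-0.24 in either case), the 1.5 h pair (-0.38) or the 24 h pair (-0.36).

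Of 13 tested genes that process or activate the ligands 7 rose at 24 h and none fell (median 0.74). Among them were the urokinase PLAU (1.77 ± 0.33), the integrin chain ITGAV, part of receptors that bind latent TGF-beta (1.06 ± 0.11), and THBS1, which can activate it (1.05 ± 0.13). PLAUR, the urokinase receptor, had 1.03 ± 0.26, and the integrin chains ITGB5 and ITGB1 had 0.80 ± 0.13 and 0.74 ± 0.11. The proprotein convertase FURIN had 0.70 ± 0.22, or 0.42 and no call without the siControl 0 h array. With siHNF4A THBS1 (0.98 ± 0.10), ITGB1 (0.70 ± 0.09) and ITGAV (0.48 ± 0.09) rose and none fell (median 0.26). The gelatinase MMP2 had 1.22 ± 0.45 at 24 h and 0.88 ± 0.37 with siHNF4A and did not pass, but passed in both without the siControl 0 h array (1.74 and 1.22). It read 209 on the siHNF4A 24 h array and 31.5 to 40.6 on the other 5.

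At 24 h 5 of the 14 tested feedback genes and direct targets rose, with none lower (median 0.21). They were the Smad-binding PMEPA1 (3.29 ± 0.36, with the siControl signals of 2.6 at 0 h and 7.8 at 1.5 h set to the floor), the CDK inhibitor CDKN2B (2.57 ± 0.25), the co-repressors SKIL (1.02 ± 0.13) and TGIF1 (0.94 ± 0.13) and the ubiquitin ligase SMURF2 (1.02 ± 0.14). At 1.5 h the inhibitory Smad gene SMAD7 (1.17 ± 0.15) and KLF10 (1.24 ± 0.13) rose. No gene at all passed at 1.5 h with probe sets averaged, with dim genes kept or without the intensity trend, so both calls were lost there. ID1, a BMP target, had 0.57 ± 0.11 at 1.5 h and 0.26 ± 0.11 at 24 h and did not pass, but passed at both times without the siControl 0 h array (0.77 and 0.46). With siHNF4A CDKN2B (1.10 ± 0.20), PMEPA1 (1.02 ± 0.29, with the same signals at the floor), TGIF1 (0.75 ± 0.11) and BAMBI, a decoy receptor (0.55 ± 0.12), rose and none fell (median 0.17). BAMBI lost its call without the siControl 0 h array or the 0 h pair (0.42 in either case) or the 24 h pair (0.57), PMEPA1 without the 1.5 h pair (1.15) or the 24 h pair (0.58), and CDKN2B without the 24 h pair (1.05).

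Genes of the integrated stress response, a programme in which GDF15 is also known to take part, were called in both directions. Of 13 tested 2 rose and 2 fell at 24 h (median 0.01), where 7.22% of all genes rose and 7.82% fell. DDIT4 (1.80 ± 0.18) and PPP1R15A (1.00 ± 0.30) rose, and the serine synthesis genes PHGDH (-0.97 ± 0.17) and PSAT1 (-0.34 ± 0.10) fell. PSAT1 had -0.35 and lost its call without the siControl 0 h array. The transcription factors ATF3 (0.80) and ATF4 (0.29) gained a 24 h call when the 1.5 h pair was left out, which made 4 that rose. Leaving out that pair does not alter the 24 h differences, here or for TGFBR1 above, but only the spread they are tested against. DDIT4 also rose at 1.5 h (2.05 ± 0.18), a call lost in the same settings as those of SMAD7 and KLF10 above. With siHNF4A ATF3 (0.95 ± 0.25) and DDIT4 (0.68 ± 0.15) rose and the kinase-like TRIB3 fell by 0.38 ± 0.11 (median 0.17). Without the 24 h pair ATF3 (0.57), DDIT4 (0.58) and TRIB3 (-0.46) did not pass, nor TRIB3 (-0.23) without the 1.5 h pair. ASNS, asparagine synthetase, had 0.39 ± 0.13 and passed without the siControl 0 h array or the 0 h pair (0.52 in either case).

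**Figure D4:**
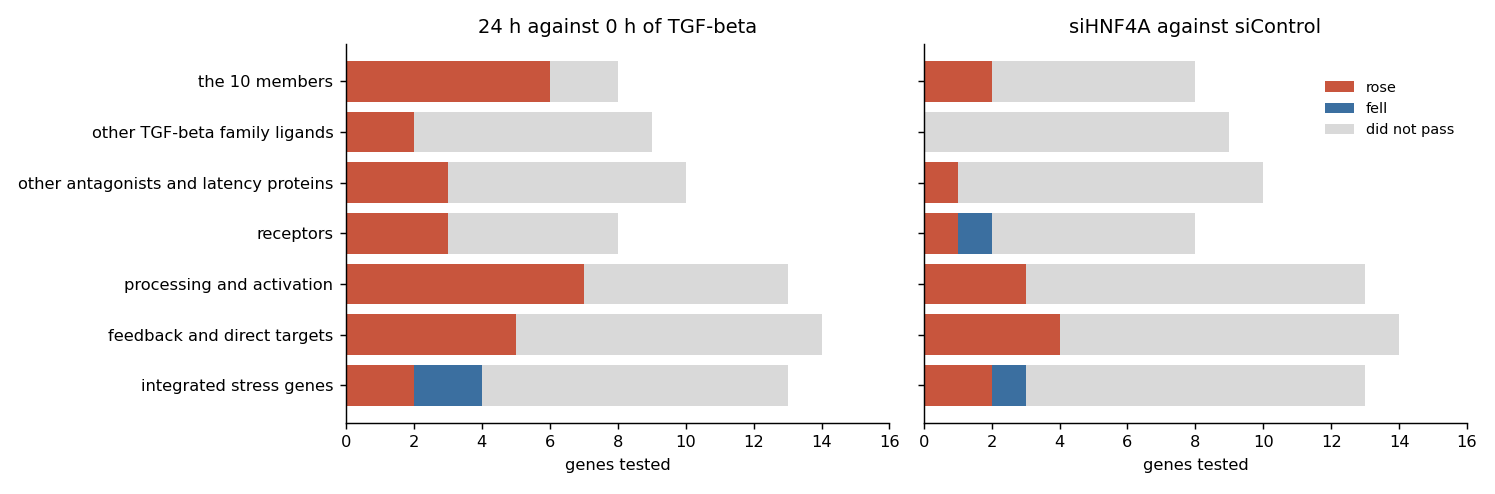
Number of tested genes that rose (red), fell (blue) or did not pass (grey) in limma, for the members and 6 pathway lists, at 24 h against 0 h (left) and with siHNF4A against siControl (right). Of the members 6 of 8 rose on the left and 2 of 8 on the right, and the processing and activation list has 7 of 13 and 3 of 13. Of all genes tested 7.22% rose and 7.82% fell on the left, and 3.9% rose and 4.16% fell on the right.

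For 7 members with a range of at least 1 on the log2 scale over the 6 arrays, the genes of most similar profile were ranked by Pearson r among 2551 other genes of like range above the floor on all arrays. With 6 points and so many genes high values arise readily, and the arrays share scaling, so r is a description only. FSTL3 ran closest to the acute-phase protease inhibitor SERPINA3 (r = 0.998), ISM1 (0.997) and CDKN2B (0.997). SERPINA3 read 1539, 1904 and 5339 in siControl and 2767, 2627 and 7198 in siHNF4A. GDF15 ran closest to PTCHD4 (0.996), the matricellular gene CCN1 (0.995) and BAIAP2L1 (0.993), and CCN1 read 4092 on the siHNF4A 24 h array against 419.8 to 1131 on the other 5.

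INHBE ran closest to SKIL (0.986), the metallothionein MT1X (0.980) and ZFP36L1 (0.976), and SKIL read 464.9, 695.9 and 928.5 in siControl and 487.6, 737.9 and 1005 in siHNF4A. TGFB1 ran closest to PDLIM7 (0.996), SH3PXD2B (0.991) and DTNA (0.984). Each of these was higher at 0 h in siHNF4A than in siControl, a shape that the choice by r selects for. BMP4 ran closest to ETV6 (0.986), RGCC (0.982) and IGFBP4 (0.978). FST ran closest to the ephrin receptor EPHA2 (0.975), LZTS3 (0.974) and ZNF697 (0.970). All 3 were highest on the siHNF4A 24 h array, which the choice by r likewise selects for. INHBB ran closest to the noncoding IKBKB-DT (0.956), IDI2-AS1 (0.948) and NCK1-DT (0.892), which read 13.0 to 45.9, near the floor.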

How the data were processed

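The authors deposited 1 table of intensities on a linear scale, MAS5 signals for 54675 probe sets on 6 arrays, for which the submitters' processing notes name GCOS and MAS5 5.0. Trimmed means (2% at each end) were 100 on every array. Genes were named from the platform annotation, which gave 1 symbol for 41091 probe sets (controls left out), and loci and promoters come from RefSeq GRCh38.p14. No detection call or probe-level value entered the work.

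Genes with a mean signal above the floor, 11921 in all, were fitted with limma 3.58.1 in R 4.3.3 (lmFit, eBayes with trend) on log2 signals with siRNA and time as terms, with 2 residual and 12.6 prior degrees of freedom. A further fit added siRNA at 24 h (1 and 8.56). The residual is thus the disagreement between times or siRNAs, not replicate error, and the number of arrays limits the precision. Named genes were the members, up to 4 called genes per list by size of difference, all called genes of lists with 5 or fewer, and the 3 most similar profiles per member. Markers and FURIN, ITGB5, MMP2, NBL1, ID1, ASNS, TGFBR1 and ATF4 were named after their values were seen. Members and lists were chosen with earlier results of these data known. Figures used Python 3.11.15 and matplotlib 3.10.9.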

Additional observations from a re-analysis of the deposited data

Results flagged for a closer look

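In these members the single arrays of the siRNA arms moved in opposite directions from 0 h. With 1 array per group the differences at 1.5 h were not tested, and the 24 h difference of INHBB was tested only in the fit given above, where it did not pass. INHBB had 0.94 at 1.5 h and 0.93 at 24 h in siControl and -0.10 and -1.19 in siHNF4A (log2 differences from 0 h). TGFB1 had 0.34 at 1.5 h in siControl and -0.69 in siHNF4A, FSTL3 had 0.35 and -0.21, and INHBC had -0.095 and 0.38. The central 95% of all genes at 1.5 h was -0.72 to 0.74 in siControl and -0.85 to 0.64 in siHNF4A. At 24 h it was -1.01 to 1.08 and -1.22 to 1.27. Only the 0.94 of INHBB lay outside these ranges. How many of all genes moved in opposite directions was not counted. The siControl values share the siControl 0 h array, whose ribosomal RNA control probe sets stood apart.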

How the results depend on the processing

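For the siRNA 2 members passed, but 0 when probe sets of a gene were averaged, when those ending in _x_at or _s_at were dropped, when dim genes were kept, when eBayes had no intensity trend and when the 24 h pair was left out, 1 without the siControl 0 h array and 4 without the 1.5 h pair. Over all genes 961 passed, against 227 with the mean of probe sets, 0 without the filter, 45 without the trend, 578 when the 1.5 h pair was left out and 242 when the 24 h pair was. At 24 h 6 members passed, against 3 with the mean of probe sets, 2 without _x_at or _s_at sets, 0 without the filter and 2 without the trend, and 1793 genes passed, against 806 with the mean, 1 without the filter and 457 without the trend. Without _x_at or _s_at sets FSTL3, BMP4, GDF15 and TGFB1 had no tested probe set. Without the filter 5223 of 19775 genes were at the floor on all arrays and so had no spread. At 1.5 h 12 genes passed, against 0 with the mean, without the filter and without the trend, 7 without _x_at or _s_at sets and 26 without the siControl 0 h array. For the siRNA effect at 24 h 0 genes passed, against 4 with the floor at the 40th percentile, 24 with a pseudocount equal to the floor and 639 without the filter. It could not be fitted with arrays left out.

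Members at least 2-fold apart between siRNAs numbered 1 at 0 h, but 0 with the pseudocount or without _x_at or _s_at sets, 0 at 1.5 h but 1 without those sets, and 3 at 24 h but 1 without them. At 24 h against 0 h there were 2 in siControl, but 1 without those sets, and 5 in siHNF4A, but 2 without them. The values that turned direction were not calls. They were INHBB (0.43) without the 24 h pair and BMP4 (0.092) without the 1.5 h pair for the siRNA, INHBC (-0.0099) at 24 h without _x_at or _s_at sets, INHBB (-0.37) and FSTL3 (-0.15) at 1.5 h without the siControl 0 h array, and for the siRNA effect at 24 h INHBC with the mean (0.075) and without those sets (0.31) and FSTL3 with the pseudocount (0.036). Where no reason is given, the cause was not tested.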
